A study of Homo sapiens with 6 samples.

Results

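The genes described here encode the SHOC2 complex and the proteins it acts with: the scaffold SHOC2, the RAS-related GTPase MRAS, the protein phosphatase 1 (PP1) catalytic subunits PPP1CA, PPP1CB and PPP1CC, the GTPase HRAS, the kinases ARAF and BRAF, and LZTR1. Every probe set annotated to 1 of these symbols alone was taken, on the log2 of its intensity, and the brightest over all 6 arrays was to stand for a gene. Of the 9 genes, 8 had such a probe set, 1 each, out of 18377 genes measured in all, so no choice between probe sets was needed. BRAF was not analysed here. The set was chosen by the measured rise of SHOC2, known to be among the largest in these arrays. The levels and the difference of SHOC2 are therefore given as a description, with no test. The other 7 genes were chosen for what they do beside SHOC2, though with earlier results of these data known.

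The arrays hold total RNA of TF-1, a human line from an acute myeloid leukaemia whose growth depends on a cytokine. Cells transfected with human PRL-3, the phosphatase encoded by PTP4A3, gave 3 arrays (numbered 4 to 6), and cells transfected with a control vector, labelled pEGFP, gave 3 arrays (numbered 1 to 3). Both groups grew in the same medium with serum and 5 ng/ml of human interleukin-3, a cytokine that itself signals through RAS. The labels do not say whether the transfected cells were clones or pools, nor whether replicate arrays stand for separate cultures, so the p-values may rest on technical spread alone.

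SHOC2 is a leucine-rich repeat protein that holds MRAS in its GTP-bound form and a PP1 catalytic subunit in 1 complex. The complex removes an inhibitory phosphate from RAF kinases at a site where 14-3-3 proteins dock, which helps RAS to activate RAF and, through MEK, ERK. LZTR1 works the other way: it brings RAS-family GTPases, MRAS among them, to a CUL3 ubiquitin ligase that marks them for degradation. In blood cells this route carries signals from cytokine receptors to growth and survival.

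PTP4A3 checked the labels, with log2 intensities of 10.81, 10.93 and 10.79 on PRL-3 arrays against 7.92, 8.03 and 7.97 on control arrays. Of 10 markers listed for TF-1 (such as CD34, KIT and GATA1), 9 lay above the median level of all genes in control arrays, as did 0 of 5 lymphocyte markers, 0 of 3 monocyte and granulocyte markers and 2 of 8 markers of fibroblasts, epithelium and endothelium, COL1A1 and KRT18. Of these 10 TF-1 markers, 2 rose with PRL-3, against 4.58% of all genes. KIT, a receptor whose signal also runs through RAS, rose by 2.02-fold (adjusted p = 0.000721, limma). CSF2RA, a cytokine receptor subunit, rose by 0.27 on the log2 scale (adjusted p = 0.0407, limma). The other cytokine receptor genes listed went both ways: CSF2RB differed by -0.57, IL3RA by 0.49 and EPOR by -0.08. None of them passed (adjusted p = 0.104, 0.162 and 0.786, limma), and their groups overlapped. CD34 differed by -0.44 (adjusted p = 0.0882, limma) with groups that did not overlap, as was so for 24.3% of all genes. The part of these markers in the other results was not tested. The summed intensity of the fibroblast, epithelium and endothelium list ran from 788.5 to 863.9 on PRL-3 arrays and from 793.2 to 885.5 on control arrays. Median intensity per array lay between 89.8 and 92.9. Across genes, log2 values correlated at 0.986 to 0.996 within groups and 0.977 to 0.986 between them, which is a description, since genes are not independent. A single direction held 0.639 of the variance within groups, with control 1 and PRL-3 5 at one end and control 3 at the other.

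SHOC2 read 11.68, 11.67 and 11.84 on PRL-3 arrays 4, 5 and 6, against 9.71, 9.78 and 9.93 on control arrays 1, 2 and 3 (log2 intensity). The lowest PRL-3 array stood well above the highest control array, and no other member had so wide a gap. On the linear scale the intensities were 3274, 3250 and 3675 with PRL-3, against 835.9, 881.1 and 973.2 in control. The means were 11.73 ± 0.0994 with PRL-3 and 9.81 ± 0.111 in control (log2, SD, n = 3 each), a log2 difference of 1.92 ± 0.0856 (moderated SE from limma) or 3.79-fold. It was the eighth largest rise of all genes. The probe set was already bright in control cells, at the 94.9th percentile of all genes, and stood at the 99.7th percentile with PRL-3; probe sets differ in how well they bind, so these ranks only show that the signal was far from the dim end. In RNA from a whole culture, more RNA per cell and more cells with the RNA cannot be told apart. Whichever single array was left out, the difference stayed between 1.87 and 1.98.

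**Figure D1:**
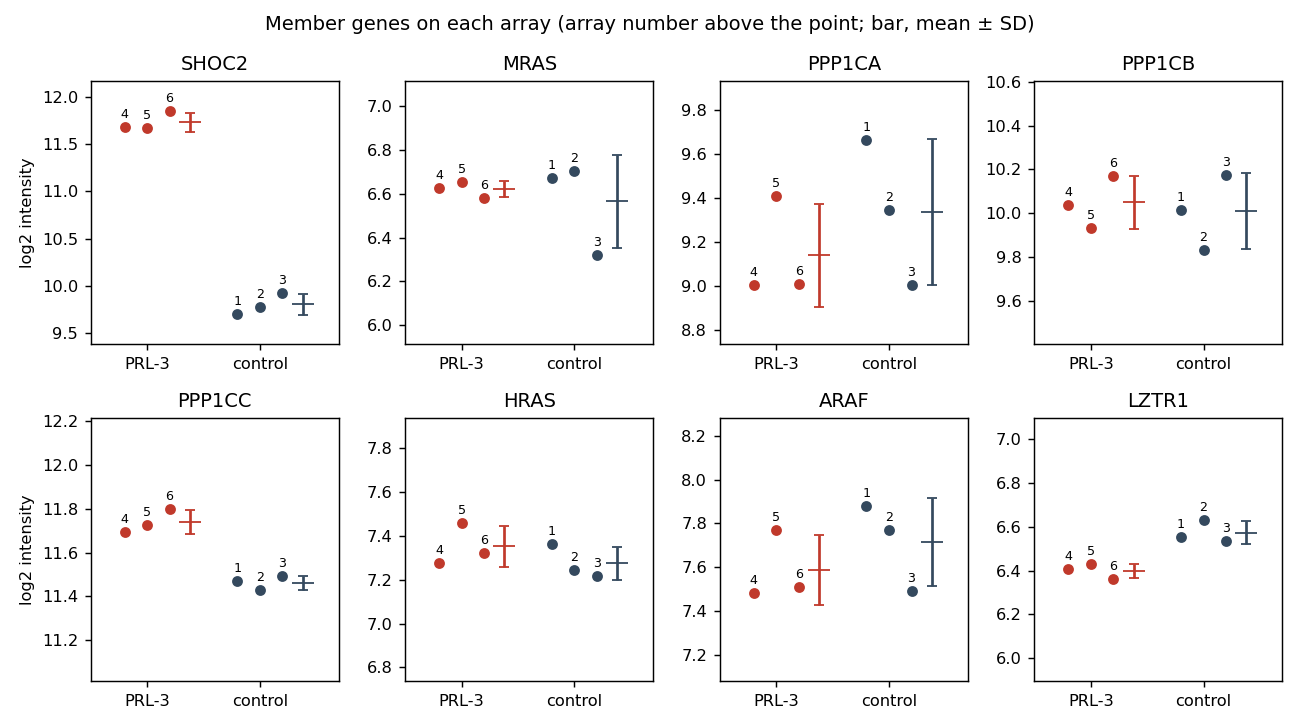
Log2 intensity (vertical axes, each panel with its own range) of the 8 genes on PRL-3 arrays (red, left) and control arrays (dark, right), with the array number above each point and the group mean ± SD beside the points. The groups are apart for SHOC2, PPP1CC and LZTR1, and overlap for the other 5 genes.

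The stretch before the SHOC2 start is shown because SHOC2 carried by far the largest difference of the set. It is the 250 bases upstream of the RefSeq start on the plus strand, chr10:110919120-110919369 (GRCh38.p14), written 5′ to 3′, with capitals on matches to a GC box (GGGCGG) or an ETS core (CGGAAG) on either strand.

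SHOC2 upstream window: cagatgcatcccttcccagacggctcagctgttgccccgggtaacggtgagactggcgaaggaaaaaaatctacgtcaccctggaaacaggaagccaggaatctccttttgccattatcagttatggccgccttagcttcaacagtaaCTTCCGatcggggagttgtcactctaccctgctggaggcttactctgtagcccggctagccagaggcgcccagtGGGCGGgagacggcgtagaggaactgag

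It held 1 GC box and 1 ETS core, which do not overlap, and 1 CRE core (TGACG). Of 35116 RefSeq promoter windows of this length, 42.6% held a GC box, 16.5% an ETS core and 21.2% the CRE core, so these matches are common ones. The full CRE (TGACGTCA), the E-box (CACGTG), AP-1 (TGANTCA), STAT (TTCNNNGAA) and TATA box (TATAAA) letters, searched on both strands, were not in this window.

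MRAS, the GTPase that SHOC2 binds, did not show a difference beyond the spread of the arrays. It read 6.63, 6.65 and 6.58 on PRL-3 arrays, against 6.67, 6.71 and 6.32 on control arrays (log2). The PRL-3 values lay inside the control range, which control 3 stretched downwards. The difference was 0.05 ± 0.106 (adjusted p = 0.86, limma), with a 95% interval from -0.19 to 0.30, and its sign turned, to -0.07, without control 3 and, to -0.06, with array weights. The probe set was at the 44.6th percentile of all genes with PRL-3 and the 42.6th in control, so a weak signal limits what can be said. Within each array, log2 SHOC2 minus log2 MRAS was 5.05, 5.01 and 5.26 with PRL-3, against 3.04, 3.08 and 3.60 in control. The mean shift of this ratio was 1.87, against a difference of 1.92 for SHOC2 alone.

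The 3 PP1 catalytic subunits are near-identical enzymes that differ mainly at their ends and share most of their regulatory partners. PPP1CC, the gamma subunit, was the only 1 of the 7 partner genes that passed the test. It rose with PRL-3, reading 11.69, 11.72 and 11.80 on PRL-3 arrays, against 11.47, 11.43 and 11.50 on control arrays (log2). The groups were apart, with a gap wider than the range within either group. Its difference was 0.27 ± 0.0657, or 1.21-fold (adjusted p = 0.0431 by limma over all genes, 95% interval 0.12 to 0.43), and PPP1CC was higher on all 3 PRL-3 arrays than on every control array. The call is a narrow one: the adjusted p ran from 0.00351 to 0.168 over 17 alternatives, and it was lost in all 6 fits that left out 1 array (0.0541 without control 3 to 0.168 without PRL-3 6), where the difference stayed between 0.24 and 0.30. Quantile normalization brought the difference to 0.22 and ended the call too (adjusted p = 0.0812, limma).

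PPP1CC is shown beside SHOC2 because these were the members with a higher level on every PRL-3 array. Its window is the 250 bases before the RefSeq start on the minus strand, chr12:110742892-110743141 (GRCh38.p14), 5′ to 3′ along the gene, with capitals as above.

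PPP1CC upstream window: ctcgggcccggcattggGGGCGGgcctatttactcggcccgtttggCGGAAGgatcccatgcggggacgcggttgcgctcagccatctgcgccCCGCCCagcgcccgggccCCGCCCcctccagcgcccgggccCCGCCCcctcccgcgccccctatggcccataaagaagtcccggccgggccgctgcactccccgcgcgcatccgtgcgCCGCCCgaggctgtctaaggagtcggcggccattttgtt

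It held 5 GC boxes and 1 ETS core and none of the other letters searched. Its G and C content was 74.4%, against 56.4% in the SHOC2 window. RefSeq windows were found for 8 of the 9 genes (11 windows, PPP1CA unmatched); an ETS core was also present at HRAS and in 1 of the 2 PPP1CB windows, and GC boxes at HRAS and in 2 of the 3 MRAS windows.

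PPP1CA, the alpha subunit, read 9.002, 9.411 and 9.006 on PRL-3 arrays, against 9.665, 9.344 and 9.002 on control arrays (log2). The arrays of 1 group differed more from each other than the groups did: PRL-3 5 stood high in its group and control 1 in its own, and control 3 matched the low PRL-3 arrays. The difference was -0.20 ± 0.175 (adjusted p = 0.626, limma, 95% interval -0.60 to 0.21). PPP1CB, the beta subunit, read 10.04, 9.93 and 10.17 with PRL-3, against 10.02, 9.83 and 10.17 in control, and the ranges lay over each other almost fully. Its difference was 0.04 ± 0.104 (adjusted p = 0.898, limma, 95% interval -0.20 to 0.28), with a sign that turned without control 2 (-0.05) or PRL-3 6 (-0.02).

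Whether the subunits moved unequally was asked within arrays, where effects shared by a whole array cancel. Log2 PPP1CC minus log2 PPP1CB was 1.66, 1.79 and 1.63 with PRL-3, against 1.45, 1.60 and 1.32 in control, so every PRL-3 array was above every control array. The mean shift was 0.23, with exact permutation p = 0.1, the smallest that 3 against 3 arrays allow, and 0.3 adjusted over the 3 pairs of subunits. PPP1CC over PPP1CA shifted by 0.47 with overlapping groups (exact p = 0.2, adjusted 0.3), and PPP1CA over PPP1CB shifted by -0.24 (exact p = 0.5, adjusted 0.5). A design of this size cannot reach a p of 0.05 in this two-sided test. Subunit probe sets could also share signal through their alike coding sequences, which was not tested.

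HRAS, a classical RAS GTPase that recruits RAF to the membrane, read 7.28, 7.46 and 7.32 on PRL-3 arrays, against 7.36, 7.24 and 7.22 on control arrays (log2). The ranges overlapped, and the difference was 0.08 ± 0.078 (adjusted p = 0.678, limma, 95% interval -0.10 to 0.26). ARAF, 1 of the RAF kinases on which the SHOC2 complex acts, read 7.48, 7.77 and 7.51 with PRL-3, against 7.88, 7.77 and 7.49 in control. PRL-3 5 sat among the higher control arrays and control 3 among the lower PRL-3 arrays. Its difference was -0.13 ± 0.12 (adjusted p = 0.659, limma, 95% interval -0.40 to 0.15).

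LZTR1, the substrate receptor that counters RAS-family GTPases, read 6.40, 6.43 and 6.36 on PRL-3 arrays, against 6.55, 6.63 and 6.54 on control arrays (log2). Every PRL-3 array was below every control array. The difference of -0.17 ± 0.0655 (95% interval -0.33 to -0.02, unadjusted p = 0.028) did not pass over all genes (adjusted p = 0.176, limma). The probe set was dim, at the 38th percentile with PRL-3 and the 42.9th in control. It passed with array weights, at -0.23 (adjusted p = 0.0129, limma), and in none of the other alternatives that tested it, where the adjusted p reached 0.436.

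**Figure D2:**
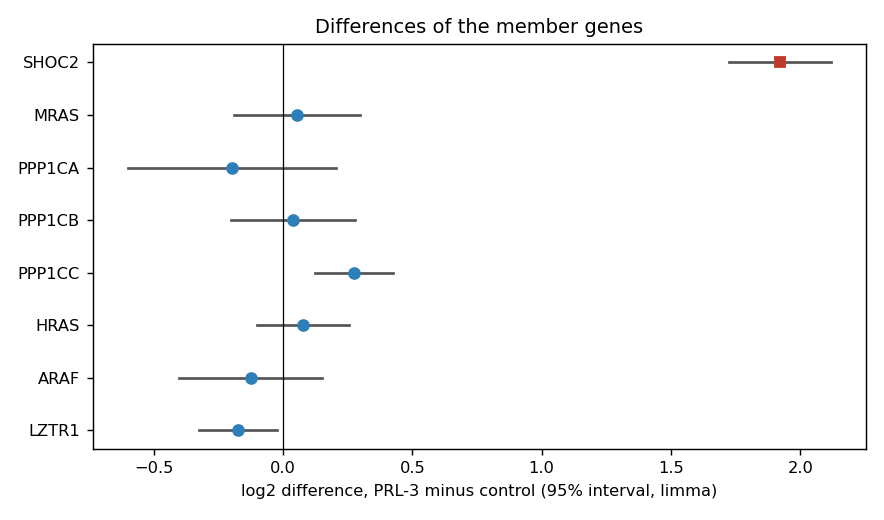
Log2 difference, PRL-3 minus control (horizontal axis), of each gene (rows) with its 95% interval from limma. SHOC2 (square) stands at 1.92 while the other 7 genes (circles) lie between -0.20 and 0.27, and among these the intervals of PPP1CC and LZTR1 leave out 0.

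Among the 7 genes other than SHOC2, 1 passed at adjusted p 0.05 in limma, against 7.69% of all genes (4.58% higher and 3.11% lower with PRL-3). The groups did not overlap in 2 of the 7, against 24.3% of all genes. Both shares are too small in number to be read as differing from the background. That background itself moved: 1413 genes passed on all arrays, 566 without control 2, 604 without PRL-3 4, 659 without PRL-3 6 and 873 without control 1, and from 11 (unequal-variance test) to 4425 (array weights) over all alternatives. The median difference of the 7 was 0.04, and that of all genes was -0.02.

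Within the groups the members did not vary alike. PPP1CA, ARAF and HRAS were each highest on PRL-3 5 among PRL-3 arrays and on control 1 among control arrays. They were lowest on PRL-3 4 and control 3, though PPP1CA was nearly as low on PRL-3 6. SHOC2 went the opposite way among control arrays, lowest on control 1 and highest on control 3. Among PRL-3 arrays it was highest on PRL-3 6, with PRL-3 5 and PRL-3 4 almost level (-0.063 and -0.052 from the group mean). PPP1CB and PPP1CC were also highest on PRL-3 6 and control 3. Along the main direction of the spread within groups, PRL-3 5 and control 1 scored 0.53 and 0.49, and PRL-3 4, PRL-3 6 and control 3 scored -0.22, -0.31 and -0.57. The range within the control group was 0.66 for PPP1CA and 0.39 for ARAF, against 0.06 for PPP1CC and 0.10 for LZTR1 (log2). With that direction as a covariate PPP1CA passed, at -0.20 (adjusted p = 0.0421, limma), and with array weights ARAF passed, at -0.24 (adjusted p = 0.0461, limma). Both settings are estimated from the residuals they then adjust for, and neither gene passed in any other alternative, with adjusted p up to 0.948 and 0.911.

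**Figure D3:**
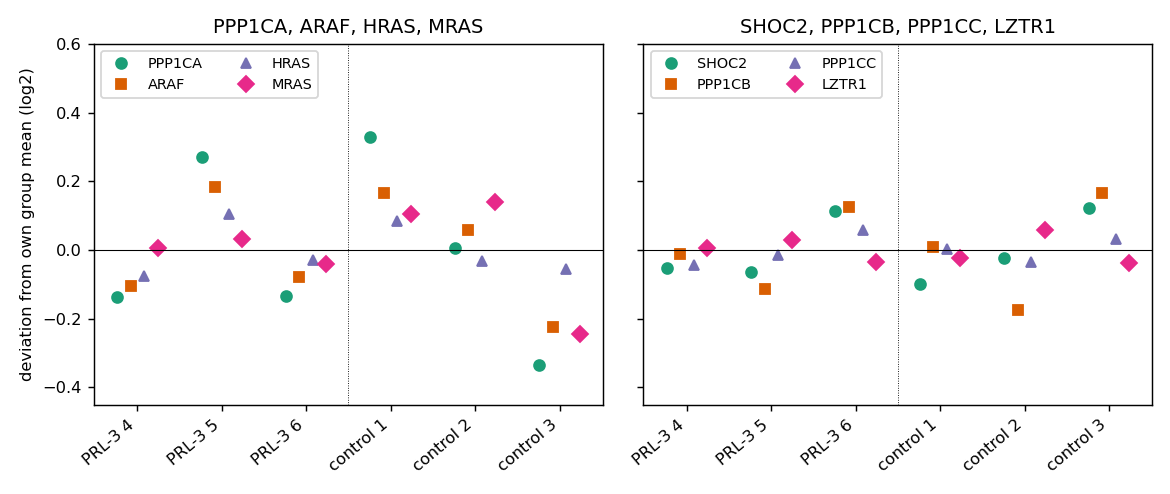
Deviation of each gene from its own group mean (vertical axis, log2) on each array (horizontal axis, PRL-3 left, control right), in 2 panels of 4 genes. PPP1CA, ARAF and HRAS sit highest on PRL-3 5 and control 1. SHOC2 sits lowest on control 1 and almost equally low on PRL-3 4 and PRL-3 5.

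The wider route was followed in lists of known genes, whose counts stand beside 4.58% of all genes higher and 3.11% lower. The lists were chosen with earlier results of these data known, so their counts are only a description. In a list of adaptors, exchange factors and other proteins between receptors and RAS, such as GRB2, SOS1 and the phosphatase PTPN11, 3 of 12 passed, with 1 higher and 2 lower (median difference 0.02). Of these 3, only GAB1 is mainly known as a positive input to RAS. CBL, a ubiquitin ligase that turns down activated receptors, rose by 0.86 ± 0.136 (1.81-fold, adjusted p = 0.00807, limma), reading 8.23, 8.51 and 8.18 with PRL-3 against 7.59, 7.58 and 7.17 in control. RASGRP2, an exchange factor that acts mainly on RAP GTPases, fell by 0.42 (adjusted p = 0.0181, limma), and the docking protein GAB1 fell by 0.28 (adjusted p = 0.041, limma). GAB1 lost its call whichever array was left out and when its probe sets were averaged (-0.12, adjusted p = 0.544), and RASGRP2 lost it in 4 of these 6 fits. SOS1 and PTPN11 differed by 0.00 and 0.03.

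Of RAS-family GTPases other than the members, 2 of 6 rose and 0 fell, with a median of 0.22. RAP1B rose by 0.57 ± 0.107 and RAP1A by 0.49 ± 0.102 (adjusted p = 0.0181 and 0.0258, limma), both small GTPases that can bind RAF. RAP1B read 10.05, 9.87 and 10.16 with PRL-3, against 9.31, 9.45 and 9.63 in control. Their calls were lost in 4 and 3 of the 6 single-array fits. RIT1, a GTPase that LZTR1 targets, differed by 0.28 and did not pass (adjusted p = 0.146, limma).

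Among genes that switch RAS off, 1 of 9 rose and 0 fell: NF1, the GTPase-activating protein neurofibromin, by 0.38 ± 0.0706 (adjusted p = 0.0174, limma). It did not pass in 3 of the 6 fits without 1 array, nor with its probe sets averaged (0.18, adjusted p = 0.183). SPRED1 and SPRED2, which bring neurofibromin to the membrane, differed by -0.10 and 0.22 and did not pass. In the list for lipid anchoring 1 of 8 rose and 0 fell, the N-myristoyltransferase gene NMT2 (0.35 ± 0.0717, adjusted p = 0.0242, limma), and 5 of the 6 single-array fits lost it.

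No gene passed in 4 lists by limma. They were RAF, KSR and MEK-ERK kinases with their scaffolds (0 of 13), 14-3-3 proteins (0 of 7), binders and turnover factors of SHOC2 such as ERBIN, SCRIB and HUWE1 (0 of 5), and subunits and cofactors of the LZTR1 ligase (0 of 4). At an unadjusted p under 0.05 the counts were 0, 1, 0 and 1, beside 3704 of all 18377 genes. With 7.69% of all genes passing, these lists are too small for 0 to be read as differing from that share. In the kinase list, the differences lay between -0.14 for KSR2 and 0.21 for MAP2K2, which encodes a MEK kinase. YWHAB, the 14-3-3 beta gene, had the lowest value of its list, at -0.28 (adjusted p = 0.0931, limma), with groups that did not overlap.

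Regulatory subunits decide where PP1 acts, and 2 of 36 fell while 0 rose, with a median difference of 0.02. These 2 are near the share of all genes, of which 3.11% fell and 7.69% passed in either direction. PPP1R13B, which encodes the p53-binding protein ASPP1, fell by 0.68 (adjusted p = 0.0226, limma), with a mean of 8.55 ± 0.209 on PRL-3 arrays against 9.23 ± 0.218 on control arrays (log2, SD, n = 3 each) and no overlap. PPP1R10, which holds PP1 in the nucleus, fell by 0.45 (adjusted p = 0.0317, limma). Each lost its call in 4 of the 6 fits without 1 array. The largest positive difference, 0.39 for PPP1R35, did not pass (adjusted p = 0.0567, limma).

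Genes whose transcription ERK is known to raise, at the far end of the route, passed in 5 of 16, and all 5 rose: ETV4 (0.68), ETV1 (0.64), ETV5 (0.54), DUSP6 (0.46) and DUSP5 (0.41), with adjusted p from 0.00628 to 0.0379 in limma, against 4.58% of all genes higher. Apart from ETV5 these were dim probe sets in control, at percentile 12 of all genes for ETV1, 17.5 for DUSP6, 30.7 for DUSP5 and 31.7 for ETV4. The lymphocyte, monocyte and granulocyte markers lay between percentiles 6.84 and 38.4, and with no detection call the folds of these 4 genes have no known floor. ETV1, an ETS transcription factor, read 6.13, 5.89 and 5.92 with PRL-3, against 5.52, 5.27 and 5.23 in control, and DUSP5, a nuclear ERK phosphatase, read 6.44, 6.74 and 6.50, against 6.24, 6.09 and 6.14. For both genes the lowest PRL-3 array lay above the highest control array. ETV4 and DUSP6 passed whichever array was left out, whereas ETV1 lost it in 1, ETV5 in 3 and DUSP5 in all 6 of these fits. EGR1 (-0.02), CCND1 (-0.02), FOSL1 (-0.24) and MYC (-0.35) did not pass. The rest of the list did not pass either, with positive differences from 0.05 for DUSP4 to 0.32 for PHLDA1 (adjusted p = 0.0913 for PHLDA1, limma). The list's median was 0.20, against -0.02 for all genes. Because this list was chosen with earlier results of these data known, its count and median are only a description, and ERK activity was not tested.

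**Figure D4:**
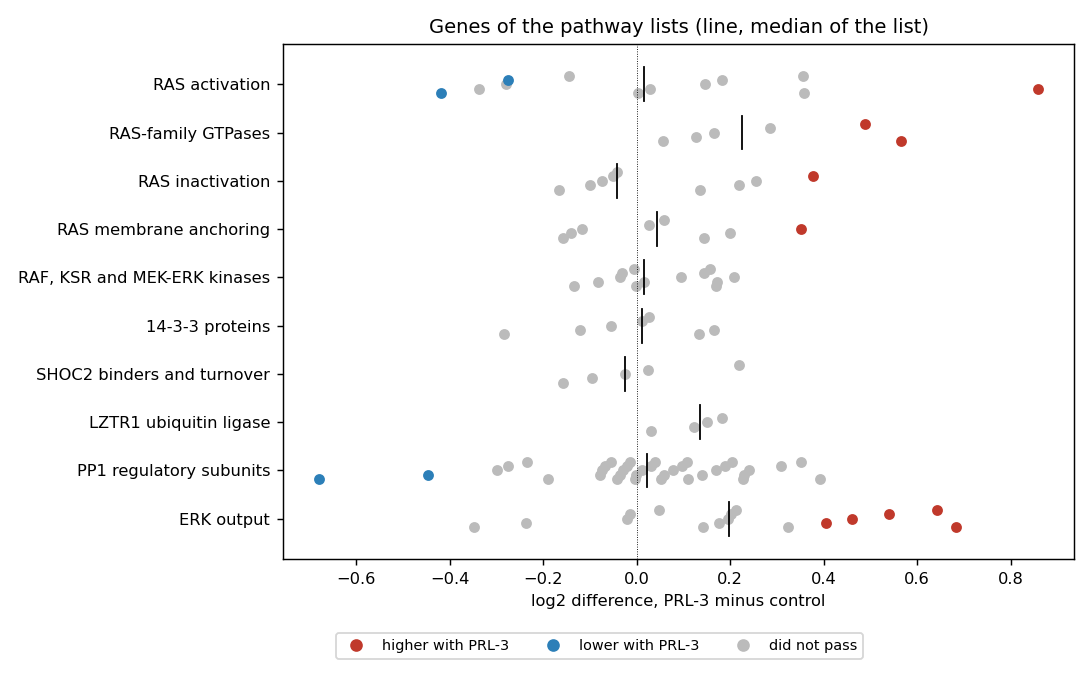
Log2 difference, PRL-3 minus control (horizontal axis), of each gene in 10 lists (rows), coloured by whether it passed at adjusted p 0.05 in limma, with the list's median as a vertical line. The red points on the right include CBL at 0.86, RAP1B and RAP1A, and 5 genes of the ERK output list, while the kinase, 14-3-3, SHOC2 binder and LZTR1 ligase rows hold only grey points.

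SHOC2 lies on chromosome 10 among genes that also differed. In RefSeq order the nearest measured protein-coding gene on one side, PDCD4, a translation inhibitor, rose by 0.81 ± 0.103 (adjusted p = 0.00347, limma), and SMC3, a cohesin subunit, by 1.40 ± 0.151 (adjusted p = 0.0017, limma). PDCD4 read 12.08, 11.94 and 12.14 on PRL-3 arrays against 11.14, 11.15 and 11.45 on control arrays, and SMC3 read 12.28, 12.08 and 12.22 against 10.44, 10.87 and 11.08. On the other side ADRA2A, an adrenergic receptor gene, differed by -0.01 (adjusted p = 0.965, limma), while the next gene, GPAM, a glycerolipid synthesis enzyme, rose by 0.35 (adjusted p = 0.0349, limma). Farther on that side ZDHHC6 and TCF7L2 differed by 0.39 and 0.40 and did not pass (adjusted p = 0.134 and 0.211, limma). Of 13 listed neighbours 5 rose and 0 fell, the others being GPAM and, on the side of SMC3, ADD3 and DUSP5, against 4.58% of all genes. The list was drawn around SHOC2 with earlier results of these data known, so its count is only a description. DUSP5 is also counted in the ERK output list. RBM20 and BBIP1, listed between SMC3 and SHOC2, were not analysed here.

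**Figure D5:**
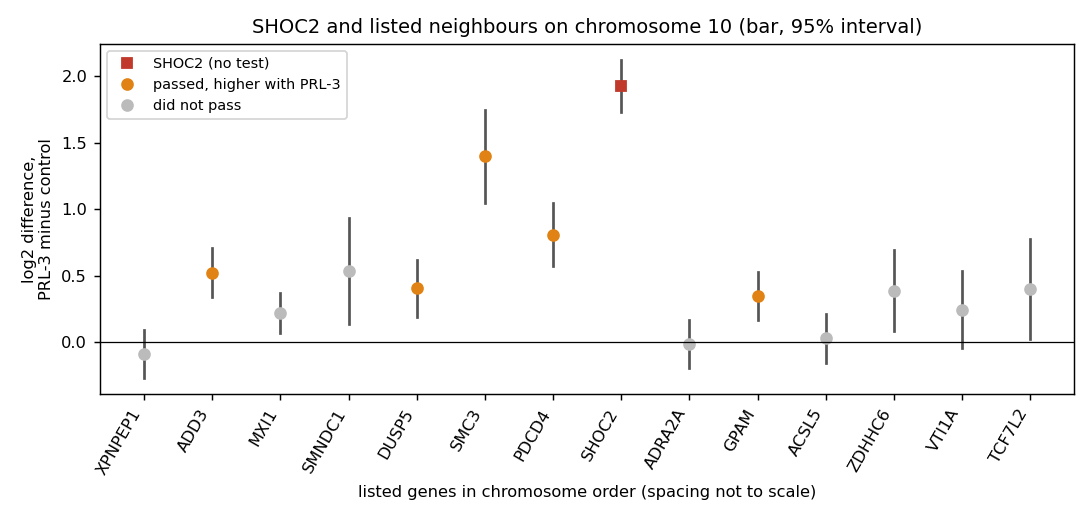
Log2 difference, PRL-3 minus control (vertical axis), with 95% intervals, of SHOC2 (square) and the 13 listed neighbours (circles) in the RefSeq order of chromosome 10, not to scale. SHOC2 at 1.92, SMC3 at 1.40 and PDCD4 at 0.81 stand above the others, and beyond SHOC2 ADRA2A is at -0.01 and GPAM at 0.35.

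The 5 genes whose mean-centred log2 values over the 6 arrays lay nearest to those of SHOC2 were CALB1, CRYAB, MSRA, MYO6 and TJP1, at root mean square distances of 0.118 to 0.175. They encode a calcium-binding protein, a small heat shock protein, a methionine sulfoxide reductase, an actin motor and a tight junction protein. None of the members was among them. All 5 are large rises, with differences between 1.60 and 1.93, which the measure favours.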

How the data were processed

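The deposited table holds 1 intensity per probe set and array (28869 probe sets), on a linear scale with nearly equal medians. It was taken as already normalized by the authors; how they summarised, background-corrected and normalized the arrays is not given in the sources used here. Per the labels, biotin-labelled cDNA was made from 100 ng of total RNA with Nugen kits. The log2 of each intensity was taken, with no further scaling. Probe sets with exactly 1 symbol in the platform annotation (19310) were used, the brightest per gene, leaving 18377 genes. No detection call was given, so low values have no known floor; having only 3 arrays per group limits precision.

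The 2 groups were set against each other in a two-sided fit by limma 3.58.1 (R 4.3.3; lmFit and eBayes), with Benjamini-Hochberg adjustment over all genes and a threshold of 0.05. Only the within-array log2 ratios of the 3 PP1 subunits were compared by exact permutation. The test was tried on simulated data. SD is over 3 arrays, and SE is moderated. The members and lists were chosen with earlier results of these data known. The rule for named genes took all members, up to 4 passing genes per list by size, PTP4A3, SMC3 and PDCD4 (and others not analysed here), and the 5 genes nearest to SHOC2; other genes named were chosen after their values were seen. Promoter windows and gene order are from RefSeq (GRCh38.p14). The alternatives were quantile normalization, a shift to 1 median, array weights, robust variances with an intensity trend, a filter on dim genes, 2 other treatments of probe sets, an unequal-variance test, a pseudocount of 16, a covariate for the spread within groups, leaving out control 1 with PRL-3 5, and leaving out each array.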

Additional observations from a re-analysis of the deposited data

How the results depend on the processing

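The SHOC2 difference kept its direction and moved by less than the spread between arrays in all 17 alternatives (1.87 to 1.98). Some of these could not move it and say nothing of its stability. They were those that change only the variances, the test, the genes kept or the treatment of probe sets (SHOC2 has 1), and the covariate, which is centred within groups. The count of the 7 partner genes that passed, 1 on all arrays, was 0 after quantile normalization, 0 in the unequal-variance test and 0 without control 1 and PRL-3 5. At an unadjusted p under 0.05 there were 2, 2 and 1 of the 7, beside 3810, 2663 and 3614 of all 18377 genes. The partner count was 3 with array weights, 2 with the within-group direction as covariate, and 0 whichever single array was left out, with fewer arrays. Genes of the pathway lists that passed numbered 18 of 128 on all arrays, 44 with array weights, 45 with the covariate and 0 in the unequal-variance test. In that test 28 of the 128 had an unadjusted p under 0.05, beside 2663 of all 18377 genes. With 1 array left out, the list genes that passed numbered 6 (without control 2) to 16 (without control 3). All genes that passed numbered 1413 of 18377 on all arrays, 4425 with array weights, 3781 with the covariate, 11 in the unequal-variance test and 566 (without control 2) to 1538 (without control 3) with 1 array left out (so with array weights, the covariate and the unequal-variance test the list count moved the same way as that of all genes). The list genes that passed were also 9 without control 1, 7 without PRL-3 4 and 8 without PRL-3 6. The sign of MRAS turned with array weights (-0.0642) and without control 3, with a range of -0.0685 to 0.123 over single arrays left out. That of PPP1CB turned without control 2 (-0.0481) and without PRL-3 6 (-0.0226), with a range of -0.0481 to 0.124. The cause of these changes was not tested. No paired analysis was possible because the groups share no replicate numbers. Without a detection call, the low levels of MRAS and LZTR1, and the still lower control levels of ETV1, DUSP6, DUSP5 and ETV4, limit what can be read from them; all 6 were left out by the filter on dim genes.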

Other observations

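Within arrays, log2 SHOC2 minus log2 SMC3 was -0.60, -0.42 and -0.38 with PRL-3, against -0.73, -1.09 and -1.15 in control, a mean shift of 0.53. Log2 SHOC2 minus log2 PDCD4 was -0.40, -0.27 and -0.30 with PRL-3, against -1.43, -1.36 and -1.52 in control, a mean shift of 1.12. In both ratios the PRL-3 arrays lay above the control arrays, so the probe sets of the 3 neighbouring genes shifted by unequal amounts on these arrays. SMC3 and PDCD4 were brighter than SHOC2 in control, at percentiles 98.6 and 99.3 of all genes against 94.9. Whether so bright a signal limits a measured rise was not tested. SHOC2 was chosen for its rise, and no test was made.

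Another 8 probe sets carried the symbol of a listed gene together with other symbols and stood outside the comparison. Their differences ran from -0.50 to 0.27, and 0 passed in limma over all probe sets, with 4 at an unadjusted p under 0.05 and the lowest adjusted p at 0.0726. No gene is named from them.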
